A study of Mus musculus with 6 samples.

Results

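Voltage-gated sodium and calcium channel genes were examined in mouse neural stem cells carrying a hairpin against Mina53 or a control hairpin. Every gene whose symbol names a sodium channel subunit (Scn, a number and a or b) or a calcium channel alpha1, alpha2delta, beta or gamma subunit (Cacna, Cacna2d, Cacnb, Cacng) was taken. This gave 37 of the 25996 genes in the table, 12 of them sodium and 25 calcium channel genes. Scn9a, Scn10a and Cacng2 were not analysed here. RNA was sequenced from 3 libraries of WT genotype with the control hairpin (shcontrol) and 3 labelled Mina53 knockdown (shMina53), all under proliferation conditions. The labels give no brain region, age, strain, number of hairpins or origin of the replicates, so a p-value here reflects only how these libraries scatter, which may be technical.

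A voltage-gated sodium channel is a large alpha subunit that opens on depolarisation and carries the upstroke of the action potential, with beta subunits that tune its gating and its place in the membrane. High-voltage calcium channels (L, P/Q, N and R type) join a pore-forming alpha1 subunit to a cytoplasmic beta and an extracellular alpha2delta subunit, while T-type channels open nearer to rest. Most gamma genes encode transmembrane AMPA receptor regulatory proteins (TARPs), which carry AMPA-type glutamate receptors to the membrane. Neural progenitors and oligodendrocyte precursors are known to transcribe some of these genes.

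Values are scaled counts, that is, reads over a library-specific factor, and library totals were 13753857 to 16811085 reads. Fold changes compare shMina53 with shcontrol as log2(scaled count + 1), which understates the change of low genes. A gene was called at a limma adjusted p under 0.05 over the 21500 genes whose mean was 1 or more. Riox2, the gene of Mina53, read 290.4, 333 and 307 in the control libraries and 121, 125 and 121 in the knockdown libraries (log2 fold change -1.34, SE 0.146, adjusted p = 9.1e-05), which fits the labels. All 9 stem cell markers of the list (among them Sox2, Nes and Vim) had a mean of at least 100. Limma called 0 higher and 3 lower: Hes5 (-0.88), Sox2 (-0.54) and Vim (-0.42). The list summed to 98459 to 120166 scaled counts in shcontrol and 83103 to 88236 in shMina53, without overlap, mostly from Vim and Fabp7. Its part in the channel results was not tested. The microglial markers found summed to 1.89 to 4.77 scaled counts in shcontrol and 3.11 to 5.80 in shMina53, and the endothelial markers to 40.4 to 65.8 scaled counts in shcontrol and 61.9 to 78.9 in shMina53, mostly from Kdr. In bulk RNA, fewer cells of a type and less RNA per cell cannot be told apart.

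Few channel genes passed the test, 2 higher and 2 lower in shMina53, and a link of direction to subunit class was not tested. The pore genes Scn2a and Cacna1e were higher in shMina53, at 155% and 181% of the shcontrol level. The TARP genes Cacng7 and Cacng4 were lower, at 69.8% and 76.3%. Of the 37 genes, 34 passed the filter on low values and 4 of these (11.8%) were called, beside 8.26% of all genes tested. By direction, 2 were higher and 2 lower, beside 3.79% and 4.47% of all genes. These 2 shares are also the background of the limma calls given for each list of subunits, partners or markers. All stem cell, oligodendrocyte precursor and astrocyte markers listed had a mean of at least 100, as had 11 of 12 sodium channel partners. At that level 13.5% of all genes were called in either direction, which is the closer background for these lists. Of the 19 channel genes with a mean of at least 100, 3 were called (15.8%), beside 13.5% of all genes at that level. These shares are near the background. At an unadjusted limma p under 0.05 there were 10 of the 34 channel genes, beside 23.6% of all genes tested, which is also the background of the unadjusted counts given for each list. The groups did not overlap for 10 of the 34, beside 29.1% of all genes: 6 were higher (14.9% of all genes) and 4 lower (14.1%). With edgeR on the recovered reads, 5 of 28 channel genes were called, beside 11.9% of its genes, and the fifth was the sodium channel beta gene Scn2b.

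**Figure D1:**
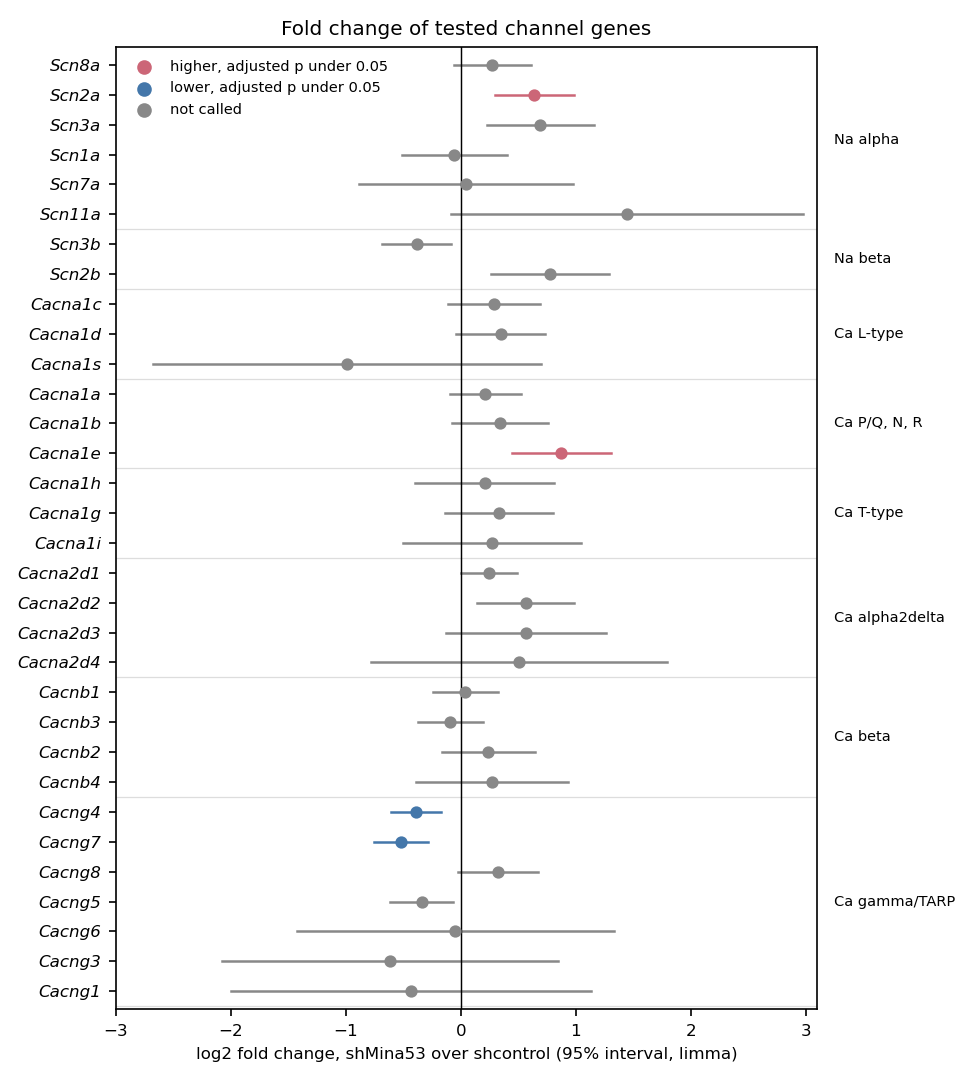
Fold change of 32 tested channel genes (x axis, log2 of shMina53 over shcontrol; lines, 95% interval of the limma fit, 3 libraries per group), grouped by subunit class. Scn2a (0.64) and Cacna1e (0.87) lie to the right of 0, Cacng7 (-0.52) and Cacng4 (-0.39) to the left, and genes with few reads have the widest intervals.

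Scn2a (ENSMUSG00000075318; mm10 chromosome 2, 65620771 to 65767447, plus strand), an alpha subunit of axons and of immature neurons, read 159, 121 and 124 in the control libraries and 206, 216 and 206 in the knockdown libraries. Every shMina53 library was above every shcontrol library. The means were 135 ± 21.3 and 209 ± 5.86 (SD, n = 3 each; log2 fold change 0.64, SE 0.162, adjusted p = 0.0227). The call ended when shcontrol 2 or any single shMina53 library was left out, at an adjusted p of at most 0.115. With each library's length trend removed, Scn2a was at 0.47 and still called (adjusted p = 0.0476).

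Cacna1e (ENSMUSG00000004110; mm10 chromosome 1, 154390731 to 154884501, minus strand), the pore of R-type calcium channels, read 75.4, 82.0 and 53.5 in the control libraries and 123, 125 and 136 in the knockdown libraries. The groups were well apart, with shcontrol 3 the lowest. The means were 70.3 ± 14.9 and 128 ± 6.92 (log2 fold change 0.87, SE 0.204, adjusted p = 0.0151). Its exonic length of 25228 bases is the longest of the 37 genes. With each library's length trend removed, the value was 0.58 and no longer called (adjusted p = 0.0516). Leaving out shMina53 2 or 3 also ended the call (adjusted p = 0.0653 and 0.0899).

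Cacng7 (ENSMUSG00000069806; mm10 chromosome 7, 3332955 to 3368221, plus strand), a TARP gene, read 1743, 1948 and 1799.9 in the control libraries and 1356, 1347 and 1129.5 in the knockdown libraries. No library of one group reached the other. The means were 1831 ± 106 and 1278 ± 128 (log2 fold change -0.52, SE 0.112, adjusted p = 0.00897). Leaving out shcontrol 2 or shMina53 3 ended the call (adjusted p = 0.0726 and 0.0722). With the length trend removed, Cacng7 was at -0.35 and still called (adjusted p = 0.0261).

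Cacng4 (ENSMUSG00000020723; mm10 chromosome 11, 107732357 to 107794557, minus strand), a TARP gene known from progenitors and oligodendrocyte precursors, read 2488, 2464 and 2382 in the control libraries and 2005, 1782 and 1808 in the knockdown libraries. The shcontrol values lay in a narrow band above all shMina53 values. The means were 2445 ± 55.5 and 1865 ± 122 (log2 fold change -0.39, SE 0.104, adjusted p = 0.0279). The call ended on leaving out shcontrol 2, shMina53 2 or shMina53 3, where the adjusted p was at most 0.175. With the length trend removed, Cacng4 was at -0.32 and still called (adjusted p = 0.0273).

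**Figure D2:**
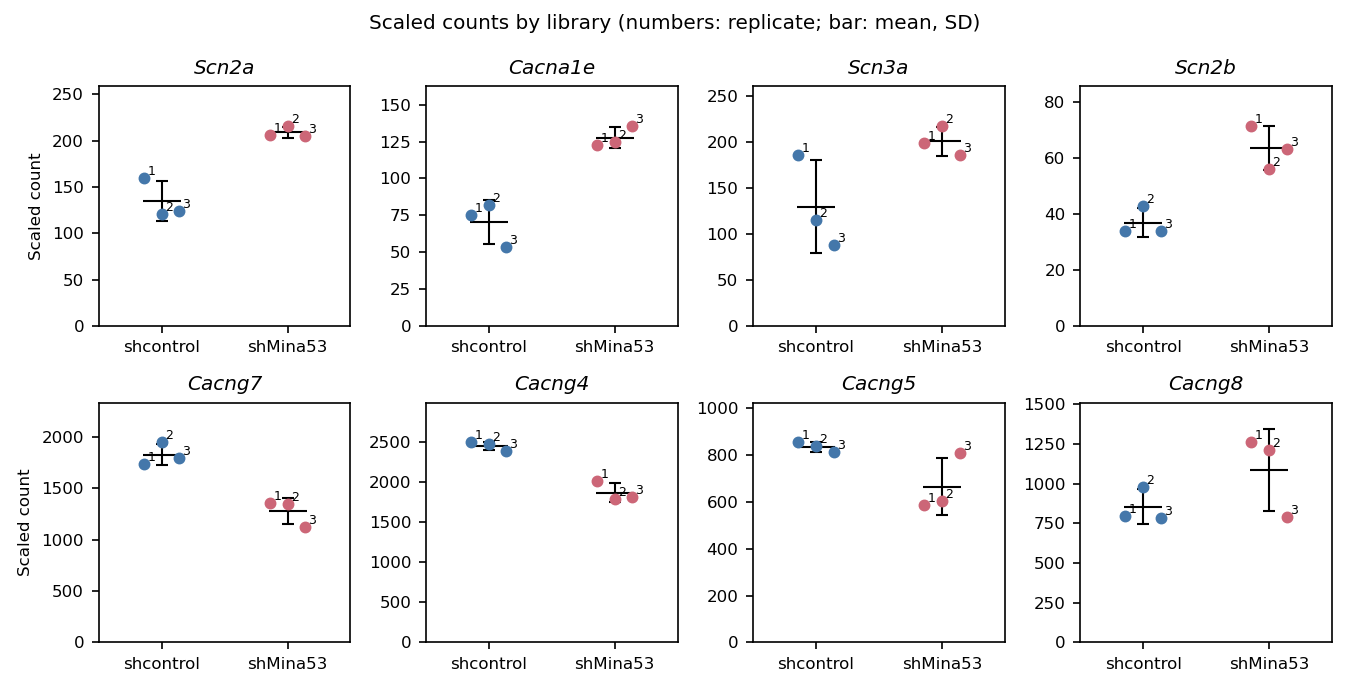
Scaled counts (y axis, from 0) of 8 channel genes in each library, with the mean and SD of each group. The groups of Scn2a, Cacna1e, Scn2b, Cacng7, Cacng4 and Cacng5 do not overlap, as in 29.1% of all genes tested. Those of Scn3a and Cacng8 overlap.

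Sequence before annotated starts of 3 of the 4 called genes is shown so that genes that were higher and a gene that was lower can be set side by side. The windows are the 250 bases before a RefSeq start on GRCm38.p6, 5′ to 3′ on the gene's strand, and capitals mark a GC box (GGGCGG, either strand) or a TATA box (TATAAA, either strand). They are Scn2a at chr2:65620519-65620768 and, at a downstream start, chr2:65668436-65668685 (plus strand), Cacna1e at chr1:154725921-154726170 (minus strand, a start well inside the annotated gene) and Cacng7 at chr7:3332575-3332824 (plus strand).
Scn2a upstream start: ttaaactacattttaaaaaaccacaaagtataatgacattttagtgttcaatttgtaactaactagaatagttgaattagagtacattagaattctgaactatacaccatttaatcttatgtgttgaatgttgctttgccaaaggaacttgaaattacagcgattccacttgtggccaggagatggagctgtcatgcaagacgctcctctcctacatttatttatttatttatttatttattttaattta
Scn2a downstream start: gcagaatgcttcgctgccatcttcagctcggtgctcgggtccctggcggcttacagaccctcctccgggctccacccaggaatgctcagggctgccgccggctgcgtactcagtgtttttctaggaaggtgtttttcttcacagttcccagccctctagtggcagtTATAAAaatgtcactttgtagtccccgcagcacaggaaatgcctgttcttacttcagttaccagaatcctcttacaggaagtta
Cacna1e: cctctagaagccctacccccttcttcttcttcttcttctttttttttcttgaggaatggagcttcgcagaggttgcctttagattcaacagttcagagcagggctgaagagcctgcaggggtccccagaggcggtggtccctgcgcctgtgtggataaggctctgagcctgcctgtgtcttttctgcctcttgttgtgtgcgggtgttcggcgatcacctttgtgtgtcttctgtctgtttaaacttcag
Cacng7: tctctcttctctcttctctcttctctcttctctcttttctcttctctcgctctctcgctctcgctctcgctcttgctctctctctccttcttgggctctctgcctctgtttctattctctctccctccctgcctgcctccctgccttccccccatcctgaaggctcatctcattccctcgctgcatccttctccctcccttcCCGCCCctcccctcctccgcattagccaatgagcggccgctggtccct
G and C made up 29.6% of the upstream Scn2a window, 53.2% of the downstream one, 52% for Cacna1e and 58% for Cacng7, beside a median of 52.4% over 32851 windows. Of these 4 windows that of Cacng7 held a GC box, as did 32.7% of all windows and 15 of the 38 windows (39.5%) of the 27 channel genes listed by RefSeq. The TATA box of the downstream Scn2a window occurs in 12.4% of all windows. Which start was used in these cells was not measured.

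Scn8a, the alpha subunit known from nodes of Ranvier and axon initial segments, dominated the sodium channel alpha subunits. Per kb of exonic length it made up 72.9% ± 3.42 in shcontrol and 69.8% ± 0.270 in shMina53 of their summed level, against 8.96% ± 1.64 in shcontrol and 11.0% ± 0.341 in shMina53 for Scn2a. Scn8a read 1645, 1538 and 997 in the control libraries and 1568, 1754 and 1614 in the knockdown libraries. Only shcontrol 3 was far below the other five libraries, which overlap (log2 fold change 0.27, SE 0.157, adjusted p = 0.319; 95% interval -0.06 to 0.61). It was 0.05 with shcontrol 3 left out and 0.07 with the length trend removed. Scn3a, the alpha subunit of the embryonic brain, read 186, 114 and 88.3 in the control libraries and 198, 217 and 185 in the knockdown libraries. Its shcontrol libraries were widely spread, and the highest reached the shMina53 range. The difference was close in size to that of Scn2a but not called (log2 fold change 0.69, SE 0.219, adjusted p = 0.0639). With shcontrol 1 left out Scn3a was called (0.98, adjusted p = 0.00140), and with shcontrol 3 left out its log2 fold change was 0.45.

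Further alpha genes had lower levels. Scn1a, the alpha subunit of inhibitory interneurons, ran from 62.0 to 80.8 scaled counts with the control hairpin and 59.0 to 75.8 with the knockdown (-0.06, adjusted p = 0.905). Scn7a, an atypical sodium-sensing channel, had means of 9.13 ± 1.38 and 9.61 ± 2.48. Neither pair of groups separated. Scn11a, a channel of sensory neurons, had 2 reads in shcontrol and 11 in shMina53, a ratio of 6.08. Its 95% interval of 1.33 to 56.5 covers counting error only, not the scatter between libraries. Scaled counts were 0.943, 0.953 and 0 in the control libraries and 5.80, 1.04 and 4.52 in the knockdown libraries. limma did not call Scn11a (log2 fold change 1.44, SE 0.725, adjusted p = 0.240). The skeletal muscle gene Scn4a had 1 read in each group and was not tested. Of 7 alpha genes tested, limma called 1 higher and 0 lower. edgeR called 1 higher and 0 lower, and an unadjusted limma p under 0.05 was reached by 2 higher and 0 lower.

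The beta subunit gene Scn3b read 305, 267 and 279.9 in the control libraries and 222, 239 and 193 in the knockdown libraries. Its groups did not overlap, but it was not called (log2 fold change -0.38, SE 0.143, adjusted p = 0.111). Scn2b, which is joined to alpha subunits by a disulfide bond, read 33.9, 42.9 and 33.8 in the control libraries and 71.5, 56.0 and 63.3 in the knockdown libraries. All its shMina53 values were above the shcontrol values. limma left it just outside the threshold (log2 fold change 0.77, SE 0.243, adjusted p = 0.0598), and edgeR called it (0.79, adjusted p = 0.0475). limma also called Scn2b with a mean of at least 10 required and with the length trend removed (0.78, adjusted p = 0.0483). DESeq2 did not call it (0.79, adjusted p = 0.0782). Scn4b had 2 reads in each group. Of 3 beta genes tested, limma called 0 higher and 0 lower. Without adjustment, 1 higher and 1 lower had a limma p under 0.05, while edgeR called 1 and 0.

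The L-type pores are Cacna1c and Cacna1d, the main brain forms, and Cacna1s and Cacna1f, of skeletal muscle and retina. Cacna1c read 772, 695 and 431 in the control libraries and 715, 857 and 687 in the knockdown libraries (log2 fold change 0.29, SE 0.186, adjusted p = 0.385). For Cacna1d the scaled counts were 178, 157 and 113 without and 174, 209 and 179.6 with the knockdown (log2 fold change 0.35, SE 0.182, adjusted p = 0.264). In both genes shcontrol 3 was the lowest library and the other five overlapped. With it left out the log2 fold changes were 0.03 and 0.16, and with the length trend removed they were 0.03 and 0.18. Cacna1c made up 70.1% ± 1.28 in shcontrol and 70.0% ± 1.5 in shMina53 of the summed L-type level per kb. Cacna1s had 15 and 5 reads, and Cacna1f 1 read in each group. Of 3 L-type genes tested, limma called 0 higher and 0 lower. At an unadjusted limma p under 0.05, 0 were higher and 0 lower, and edgeR called 0 higher and 0 lower.

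Cacna1a and Cacna1b form the P/Q-type and N-type channels of presynaptic terminals. Cacna1a read 762, 633 and 473 in the control libraries and 725, 724 and 679 in the knockdown libraries (log2 fold change 0.21, SE 0.146, adjusted p = 0.408). For Cacna1b the scaled counts were 223, 211 and 121 without and 241, 224 and 215 with the knockdown (log2 fold change 0.34, SE 0.198, adjusted p = 0.317). Again shcontrol 3 stood below every other library. Leaving it out gave 0.03 and 0.06, and removing the length trend 0.07 and 0.22. Cacna1e, described above, was the least abundant of these pores, with 3.71% ± 0.420 in shcontrol and 5.63% ± 0.512 in shMina53 of their summed level per kb.

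T-type transcripts were nearly all Cacna1h, which made up 95.9% ± 0.607 in shcontrol and 95.6% ± 0.201 in shMina53 of their summed level per kb. Cacna1h read 2509.9, 2456 and 1275 in the control libraries and 2135, 2662 and 2129 in the knockdown libraries, the highest counts of any pore gene. The library shcontrol 3 was far below the remaining libraries, which overlapped. Its difference (log2 fold change 0.21, SE 0.259, adjusted p = 0.693) turned to -0.11 with shcontrol 3 left out (adjusted p = 0.507) and was 0.09 with the length trend removed. Cacna1g, a T-type pore of thalamic neurons, had means of 72.8 ± 18.4 and 89.8 ± 5.07, and its relative Cacna1i 15.8 ± 4.45 and 19.0 ± 4.27. Of 3 T-type genes tested, limma called 0 higher and 0 lower. edgeR called 0 higher and 0 lower, and an unadjusted limma p under 0.05 was reached by 0 higher and 0 lower.

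All 4 alpha2delta genes, whose products carry channels to the cell surface, had a positive fold change, with a median of 0.53, but limma called 0 higher and 0 lower. Cacna2d1, a binding site of gabapentin, read 771, 799.7 and 738 in the control libraries and 811, 958 and 978 in the knockdown libraries. The groups did not overlap, though the gap was small (log2 fold change 0.25, SE 0.115, adjusted p = 0.203), and with the length trend removed the value was 0.08. For Cacna2d2 the scaled counts were 87.7, 87.7 and 67.6 without and 139, 117 and 104 with the knockdown (log2 fold change 0.56, SE 0.198, adjusted p = 0.0905), again without overlap. Cacna2d3 had means of 20.2 ± 4.90 and 30.5 ± 7.58, and Cacna2d4 had 9 and 13 reads. Without adjustment, 2 higher and 0 lower had a limma p under 0.05, while edgeR called 0 and 0.

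The cytoplasmic beta subunits, which bring the alpha1 subunit to the membrane, had small differences. Cacnb1 read 307, 355 and 297 in the control libraries and 306, 349 and 329 in the knockdown libraries (log2 fold change 0.04, SE 0.133, adjusted p = 0.894). For Cacnb3 the scaled counts were 299, 286 and 301 without and 291, 252 and 289 with the knockdown (log2 fold change -0.09, SE 0.133, adjusted p = 0.731). Their 95% intervals were -0.24 to 0.32 and -0.37 to 0.19. The gene Cacnb2 read 137, 120.1 and 99.6 in the control libraries and 111, 150.5 and 162 in the knockdown libraries (log2 fold change 0.24, SE 0.193, adjusted p = 0.495; 0.12 with shcontrol 3 left out and 0.07 with the length trend removed), and Cacnb4 had means of 38.1 ± 17.3 and 44.1 ± 9.12. Groups overlapped in all 4 genes, and limma called 0 higher and 0 lower. At an unadjusted limma p under 0.05, 0 were higher and 0 lower, and edgeR called 0 higher and 0 lower.

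The TARP genes Cacng7, Cacng4 and Cacng8 had the highest levels per kb of all channel genes. Over all libraries Cacng7 stood at 637 scaled counts per kb, Cacng4 at 603, Cacng8 at 413 and Cacng5 at 196, beside 225 for Cacna1h and 96.4 for Scn8a. The gamma genes summed to 5797 to 6237 scaled counts in shcontrol and 4537 to 5213 in shMina53, without overlap. Most of that sum is from the called genes Cacng4 and Cacng7. Of 7 gamma genes tested, limma called 0 higher and 2 lower. Their median log2 fold change was -0.39, the value of Cacng4 itself, beside 0.02 over all genes. edgeR called 0 higher and 2 lower, and an unadjusted limma p under 0.05 was reached by 0 higher and 3 lower. Not every TARP gene went this way. Cacng8, near Cacng7 on chromosome 7, read 798, 979.9 and 783 in the control libraries and 1259, 1211 and 787 in the knockdown libraries. Here shMina53 1 and 2 were above all other libraries and shMina53 3 among the lowest (log2 fold change 0.32, SE 0.162, adjusted p = 0.245). With the length trend removed it was 0.50 and not called (adjusted p = 0.0994). Its share of the summed gamma level per kb was 17.96% ± 1.46 in shcontrol and 27.2% ± 4.40 in shMina53, and that of Cacng7 was 37.1% ± 0.855 in shcontrol and 31.0% ± 0.728 in shMina53.

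Cacng5, a TARP gene near Cacng4 on chromosome 11, read 853, 839 and 813 in the control libraries and 587, 603 and 806 in the knockdown libraries. The library shMina53 3 lay just under the shcontrol range and the other shMina53 libraries far below it (log2 fold change -0.34, SE 0.129, adjusted p = 0.114). It was called when shcontrol 3 was left out (-0.36, adjusted p = 0.0317). Cacng1, the gamma subunit of skeletal muscle, its relative Cacng6 and the neuronal TARP gene Cacng3 had means of 1.65 to 5.08 scaled counts and were not called. Beside the TARP genes, limma called 0 higher and 3 lower of 6 oligodendrocyte precursor markers, namely Sox10, Pdgfra and Gpr17. Without adjustment, 0 higher and 3 lower had a limma p under 0.05, while edgeR called 0 and 3. The list summed to 46871 to 49283 scaled counts in shcontrol and 44557 to 53509.5 in shMina53, which overlap. Most of that sum is Olig1, which was not called, while Sox10, Pdgfra and Gpr17 stood at 43.2%, 57.7% and 47.98% of shcontrol. None of the list was at 0. Their part in the TARP result was not tested.

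**Figure D3:**
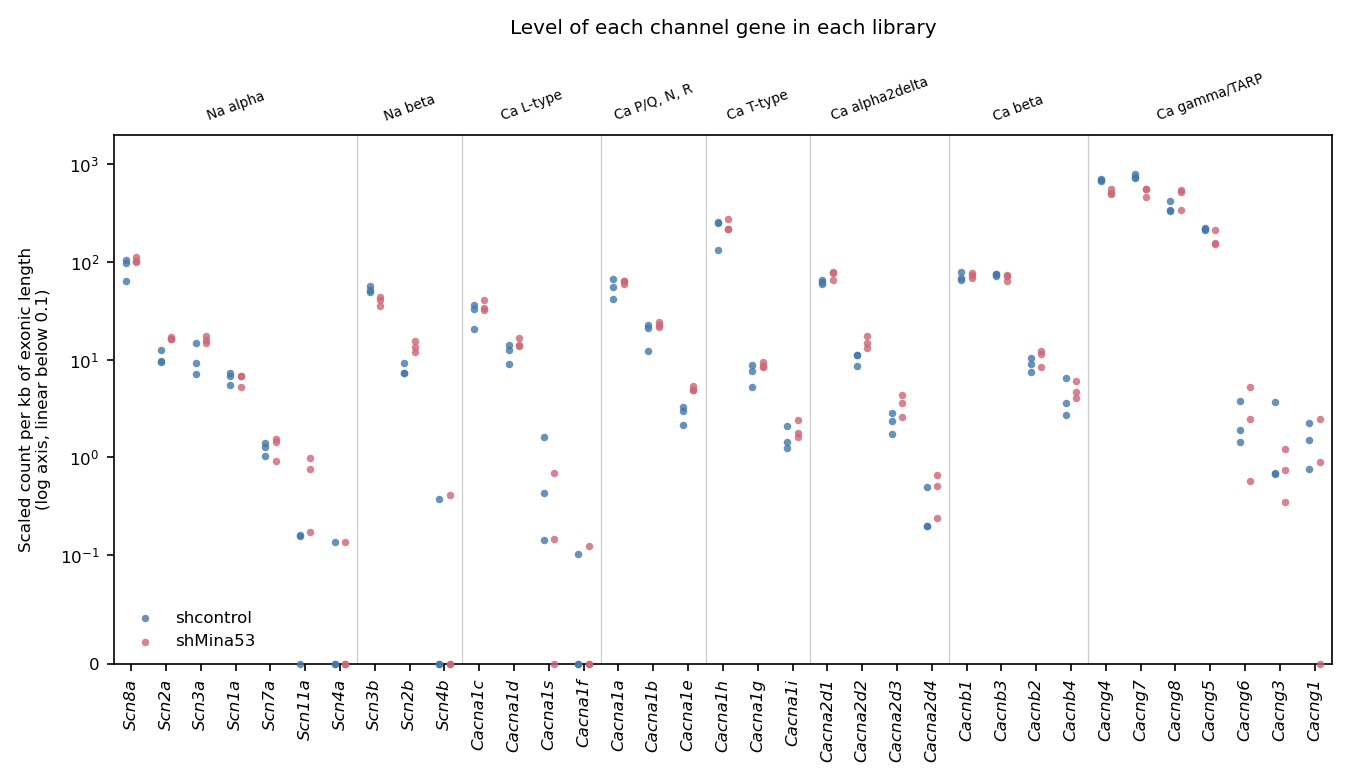
Scaled count per kb of exonic length (log axis, linear near 0) of 35 channel genes in each library, by subunit class. Cacng7, Cacng4 and Cacng8 have the highest levels, and Scn8a, Cacna1h and Cacna2d1 lead their classes.

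Most pore genes were lowest in the same library, shcontrol 3. Of the 13 alpha genes with a mean of at least 10, 11 were lowest in shcontrol 3, beside 4251 of 14872 genes at that level. Their median deviation from each gene's own mean there was -0.59 (log2). In shcontrol 1 and 2 it was 0.15 and -0.06, and in shMina53 1, 2 and 3 it was 0.08, 0.33 and 0.10. The 14 auxiliary genes at that level deviated less, with -0.15 in shcontrol 3, and 8 of them were lowest there. The alpha genes are long, with a median exonic length of 11418 bases against 4592.5 for the auxiliary genes and 4238 over all genes at that level. In a lowess trend over 11377 protein-coding genes, genes of 8000 bases minus genes of 2000 bases gave -0.44 (log2) in shcontrol 3 and -0.09 to 0.21 in the other libraries.

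List medians moved with that library. The median log2 fold change of the 13 pore genes was 0.33, with 12 positive. It was 0.11 with shcontrol 3 left out and 0.18 with the length trend removed, with 12 of 13 positive under each of these settings. Over all 14872 genes with a mean of at least 10 the median was -0.01, -0.01 and 0.03 under the same settings. Of these genes 7345, 7247 and 8101 were positive. Their median exonic length was 4238 bases against 11418 for the pore genes, and genes matched on length were not compared. So the count of positive pore genes cannot be told apart from a trait of long genes. Over the 34 channel genes tested the median log2 fold change was 0.26, and 0.11 with shcontrol 3 left out. Scn2a and Cacna1e were called with that library left out (0.59, adjusted p = 0.0127, and 0.69, adjusted p = 0.0154). All 37 genes took 0.0980%, 0.0973% and 0.0759% of all counts without the knockdown (libraries 1 to 3) and 0.0904%, 0.0961% and 0.0858% with it. The mean share in shMina53 was 100.4% of that in shcontrol.

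**Figure D4:**
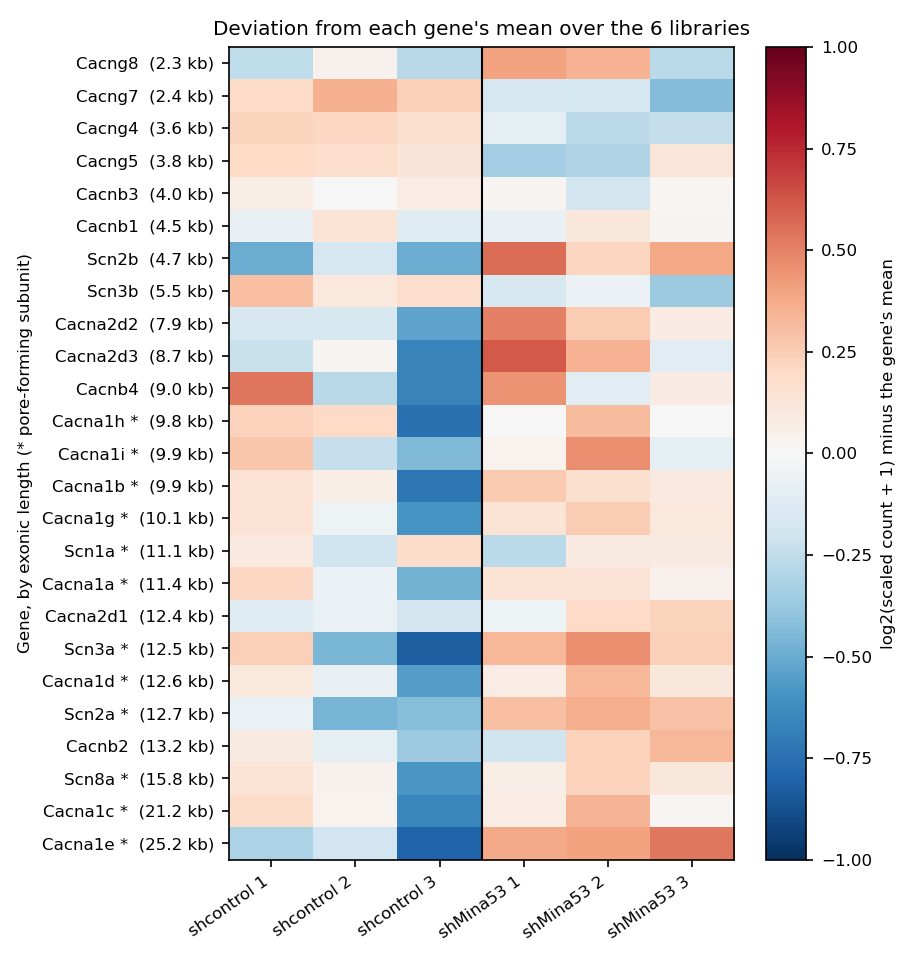
Deviation of 25 channel genes with a mean of at least 10 from their own mean (colour, log2) in the 6 libraries, ordered by exonic length. Most long genes are lowest in shcontrol 3. Cacng7, Cacng4 and Scn3b, the last not called, are above their mean in all 3 shcontrol libraries and below it in all 3 shMina53 libraries.

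Genes that act beside these channels were taken from lists of partners. Of 12 sodium channel partners, limma called 4 higher and 1 lower. Fgf12, an intracellular FGF-like protein that binds the alpha subunit, went from 337 ± 14.3 to 511 ± 34.4 (0.60, adjusted p = 0.00675), and was called whichever library was left out. Its relative Fgf11 was lower, from 1115 ± 131 to 769.6 ± 129 (-0.54, adjusted p = 0.0188). The adhesion gene Nrcam (0.48, adjusted p = 0.0114) and the ankyrin gene Ank2 (0.58, adjusted p = 0.0133) were higher, as was Fgf14, which lies outside the naming rule and was named after its values were seen. Nrcam, Ank2 and Fgf11 were not called with shcontrol 2 or with shMina53 3 left out. Nor were Nrcam and Ank2 with shMina53 2, or Ank2 and Fgf11 with shMina53 1, left out (adjusted p at most 0.120). With the length trend removed Ank2 was at 0.23 (adjusted p = 0.0930).

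Of 14 calcium channel partners tested, limma called 0 higher and 3 lower. At an unadjusted limma p under 0.05, 0 were higher and 5 lower, and edgeR called 0 higher and 3 lower. Rrad, a small GTPase that inhibits calcium channels, went from 32.4 ± 3.23 to 10.2 ± 4.94 (-1.69, adjusted p = 0.0156). Stac2, an adaptor of L-type channels (-0.59, adjusted p = 0.0325), and the calmodulin gene Calm3 (-0.39, adjusted p = 0.0427) were lower too. None of the 3 was called with shcontrol 2, shMina53 1 or shMina53 3 left out (adjusted p at most 0.209), nor Stac2 and Calm3 with shMina53 2 left out. With the length trend removed Stac2 was at -0.48 (adjusted p = 0.0569) and Calm3 at -0.22 (adjusted p = 0.109). Of 4 genes of the sodium leak channel complex, limma called 0 higher and 0 lower. edgeR called 0 higher and 0 lower, and an unadjusted limma p under 0.05 was reached by 1 higher and 0 lower.

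Of 20 genes of calcium release and export, limma called 3 higher and 0 lower. Without adjustment, 7 higher and 2 lower had a limma p under 0.05, while edgeR called 4 and 0. Atp2b4, a plasma membrane calcium pump, went from 549.96 ± 106 to 1037 ± 54.1 (0.93, adjusted p = 0.000653), and the related pump gene Atp2b2 from 28.99 ± 1.54 to 82.6 ± 15.6 (1.46, adjusted p = 0.00179). Both were called whichever library was left out, as limma was fitted here, but not without the variance trend and robust step. The same holds for Fgf12 and, below, Camk2a. The release channel gene Itpr1 was higher (0.49, adjusted p = 0.0409), but not with the length trend removed, nor with shcontrol 2 or any single shMina53 library left out (adjusted p at most 0.186). Its value with the length trend removed was 0.25.

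Of 13 calcium-regulated kinases, phosphatases and factors, limma called 2 higher and 0 lower. At an unadjusted limma p under 0.05, 5 were higher and 0 lower, and edgeR called 2 higher and 0 lower. Camk2a, a calmodulin-dependent kinase, went from 69.7 ± 21.8 to 149 ± 13.2 (1.13, adjusted p = 0.00567), and was called whichever library was left out. Nfatc3, a factor released by calcineurin, was higher (0.56, adjusted p = 0.0108), but not with shcontrol 2, shMina53 2 or shMina53 3 left out (adjusted p at most 0.0718). Markers of other cell types moved in the same libraries. Neuronal markers had 1 higher (Map2) and 3 lower (Gad1, Syp and Tubb3) of 11 called. They summed to 12156 to 14834 scaled counts in shcontrol and 15129.6 to 16107 in shMina53, mostly from Map2, at 129% of shcontrol. Of the 11, 9 had a negative fold change (median -0.44), and Gad1, Syp and Tubb3 stood at 69.2%, 59.6% and 69.0% of shcontrol. Slc17a7 and Stmn2 were under 5 on average. Astrocyte markers had 3 higher (Gja1, Aqp4 and Slc1a3) and 0 lower of 7 called, all 7 with a mean of at least 100. At that level 13.5% of all genes were called. The astrocyte list summed to 60350.5 to 63837 scaled counts in shcontrol and 78758 to 79379 in shMina53, mostly from Slc1a3. Not called were Gfap (0.33), S100b (0.37), Slc1a2 (0.08) and Aldh1l1 (-0.14). Muscle markers had 1 higher and 0 lower of 4 called, the higher one being Myh6, and summed to 72.3 to 115 scaled counts in shcontrol and 191 to 261 in shMina53. Mural and fibroblast markers had 0 higher and 0 lower of 4 called and summed to 233 to 333 scaled counts in shcontrol and 349 to 539 in shMina53. Oligodendrocyte markers had 1 higher and 2 lower of 5 called and summed to 993 to 1343 scaled counts in shcontrol and 842 to 1222 in shMina53. Their part in the channel results was not tested.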

How the data were processed

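RNA of 6 mouse neural stem cell libraries, 3 per group, was sequenced. The authors deposited a table with a signal for each library, group means and a p-value. Each signal is the deposited count after division by a library's own factor: all values (100%) were whole multiples of 1 step within 0.01 reads, so whole reads could be recovered. The deposited p-value was only compared with that of DESeq2 on those reads, which it matched (median absolute log10 difference 1.13e-06). The submitters' processing notes name mm10, edgeR, DESeq2, StringTie 1.3.4d, UMI-tools, HISAT2 2.0.4 and CASAVA without roles. Whether counting used strand or molecular identifiers is not given in the sources used here. Of the 37 channel genes 9 share exonic bases with another gene, and in 1, Cacna1s, that gene's mean was over 0.1 times its own.

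Groups were compared with limma 3.58.1 in R 4.3.3 (trend and robust options, two-sided, no covariates) on log2(scaled count + 1), with a mean of 1 or more required and p-values adjusted by Benjamini and Hochberg. Alternatives were edgeR 4.0.16 (quasi-likelihood, TMM), DESeq2 1.42.0, other pseudocounts, filters and scalings, a plain variance model, removal of each library's length trend, a replicate block and leaving out each library. The fit was tested on simulated data. The members, lists and tests were chosen with earlier results of these data known. Channel genes that were called or had a mean of at least 100 are given in full, the others by range (2 genes are not reported here), and of each partner list at most 4 called genes. Intervals on reads are exact 95% intervals and cover counting error only. Positions and exonic lengths are from GENCODE M21 on mm10, and promoters from RefSeq.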

Additional observations from a re-analysis of the deposited data

How the results depend on the processing

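The 1776 genes called became 32 without the variance trend and robust step, 1178 with the replicate block, and 497 (shMina53 3) to 2794 (shcontrol 1) when 1 library was left out. Of the channel genes 4 were called, 4 with the replicate block, and 0 to 5 with 1 library left out: none without shMina53 3, only Cacna1e without shcontrol 2 and only Cacng7 without shMina53 2. limma without the variance trend and robust step called 0, where edgeR called 5 and DESeq2 4, and that setting also ended the calls of Atp2b4, Atp2b2, Fgf12 and Camk2a. The deviations of same-numbered libraries from their group means had correlations of -0.15, 0.11 and 0.02 over 12053 genes. With 3 libraries per group this cannot show whether such libraries were made together, which the labels do not give. The replicate block ended the calls of Stac2, Calm3 and Itpr1 among the named partners.

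Some genes that were not called changed sign. Scn7a was at -0.0951 with quantile normalization and -0.0179 with the length trend removed. Cacng6 was at 0.0345 with a pseudocount of 5, 0.21 by DESeq2 and 0.16 with the length trend removed. With 1 library left out, Scn1a from -0.17 to 0.0603, Scn7a from -0.0814 to 0.26, Cacna1h from -0.11 to 0.38, Cacnb1 from -0.0115 to 0.12, Cacng6 from -0.61 to 0.60, Cacng3 from -0.94 to 0.0428 and Cacng1 from -0.93 to 0.0895 were the ranges of log2 fold change. The cause was not tested. In 10 of the 37 genes, with means under 10, depth limits any statement of direction.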
